A study of Homo sapiens with 6 samples.

Results

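HMOX1, OSGIN1 and NOX5 are 3 genes tied to oxidative stress, and their expression was measured in ES2, a human ovarian cancer cell line that the labels describe as epithelial. Of the 6 RNA-seq libraries, 3 had a control antisense oligonucleotide and the genotype label of a control (control ASO). The other 3 had an antisense oligonucleotide to the long non-coding RNA RUNX1-IT1 and the genotype label of a knockdown (RUNX1-IT1 ASO). Such oligonucleotides base-pair with a chosen RNA and commonly lead to its cleavage. All 6 libraries came from this 1 cell line grown in RPMI-1640 with serum, and the labels give no oligonucleotide sequence, dose or time and do not say whether the replicates are separate cultures, so the spread between libraries may be technical. In the CPM values as deposited, the mean level of HMOX1 was 2.10-fold and that of OSGIN1 2.22-fold lower in the RUNX1-IT1 ASO group, while NOX5, a gene of very low level, was 3.09-fold higher. Scaling the libraries to a common total of the listed entries turned the direction of HMOX1 and OSGIN1 but not that of NOX5. By construction that scaling centres a set in which nearly all named genes were lower. For HMOX1 and OSGIN1 the turn therefore marks only a smaller decrease than that of the listed total. The 3 genes were taken by symbol from the 771 named genes among the 1113 listed entries. They were proposed after their levels in these same libraries were known, so the difference between the groups is given for them as a description with no test.

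Heme oxygenase 1, the product of HMOX1, opens the heme ring and releases biliverdin, iron and carbon monoxide. Its gene is a standard target of NRF2, a transcription factor that KEAP1 holds back until oxidants or electrophiles appear, and it is repressed by BACH1, which leaves the DNA when heme binds it. OSGIN1, oxidative stress induced growth inhibitor 1, is also induced through NRF2 and restrains growth. NOX5 belongs to the NADPH oxidases, membrane enzymes that make superoxide. It is switched on by calcium through its EF-hand domain and does not need the cytosolic subunits that other members of the family use.

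The values are CPM, counts per 1000000 reads of a library. Listed entries took 1.02 to 1.11% of this scale per control ASO library and 0.363 to 0.389% per RUNX1-IT1 ASO library, and the smallest fold between group means of any named gene was 1.99, so what is listed is a minor share of a library and consists of genes that differ between the groups. Low values lay on even steps, which put 1 read at 0.0471 to 0.0586 CPM and the libraries at 17100000 to 21200000 reads. Among the named genes, 751 had a lower and 20 a higher mean in the RUNX1-IT1 ASO group. RUNX1-IT1 itself is not among the named genes, and the labels could therefore not be checked on the target. A further 342 listed entries have no symbol, so whether it is among those is not known. Of 19 ovarian epithelial markers, only PAX8 was listed, at 7.16 ± 0.733 and 2.98 ± 0.602 CPM (SD, n = 3 each), and the other 18 were not analysed here.

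HMOX1, gene ENSG00000100292.16, lies on the plus strand of chromosome 22 from 35380361 to 35394214 in GENCODE release 29 on GRCh38, where no other annotated gene overlaps it. Its full-length coding transcript HMOX1-201 has 5 exons and 1822 bases. In control ASO replicates 1 to 3 HMOX1 stood at 65.07, 60.7 and 69.1 CPM. Replicates 1 to 3 of the RUNX1-IT1 ASO group stood at 28.7, 32.9 and 31.4 CPM. The groups did not overlap, and the lowest control library was 1.84 times the highest RUNX1-IT1 ASO library. The group means were 65.0 ± 4.22 and 31.0 ± 2.15 CPM (SD, n = 3 each), 2.10-fold lower under the RUNX1-IT1 ASO, or -1.04 ± 0.09 on the log2(CPM + 1) scale (limma standard error). These are levels in bulk RNA, in which fewer cells that express a gene and less RNA per cell cannot be told apart.

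The depth behind HMOX1 was the best of the 3 genes. Its values correspond to 1048 to 1467 reads per control ASO library and 536 to 612 reads per RUNX1-IT1 ASO library. Exact 95% Poisson intervals on these reads ran from 57.1 CPM upwards in the control ASO group and reached 35.6 CPM at most with the RUNX1-IT1 ASO, so they did not meet. Such intervals cover counting error only and leave out other variation between libraries. Whether molecular identifiers were used is not given in the sources used here, so reads copied by PCR could make them too narrow.

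OSGIN1, gene ENSG00000140961.12, lies on the plus strand of chromosome 16 from 83948282 to 83966332, and 6 of its 7 annotated transcripts are protein-coding. AC009119.2, a coding gene annotated on the same strand from 83908132 to 83951445, overlaps its upstream end. It is not listed under that GENCODE name, which the deposited entries may not use. How reads in the shared stretch were assigned is not known. In control ASO replicates 1 to 3 OSGIN1 stood at 16.7, 15.5 and 18.7 CPM. Replicates 1 to 3 of the RUNX1-IT1 ASO group stood at 6.04, 7.58 and 9.26 CPM. The groups did not overlap, although the nearest libraries were closer than for HMOX1, at 1.67-fold. Means were 16.9 ± 1.61 and 7.63 ± 1.61 CPM (SD, n = 3 each), 2.22-fold lower under the RUNX1-IT1 ASO, or -1.07 ± 0.13 on the log2(CPM + 1) scale (limma standard error).

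The RUNX1-IT1 ASO libraries differed among themselves in OSGIN1 by more than counting error. Replicate 1 held 113 reads, with a 95% Poisson interval of 4.98 to 7.27 CPM, and replicate 3 held 158 reads, with an interval of 7.87 to 10.8 CPM. The coefficient of variation (CV, the SD as a share of the mean) was 21.1% in this group, where counting alone would give 8.53%, and 9.53% in the control ASO group. Of 47 other named genes within 1.5-fold of its level in the RUNX1-IT1 ASO group, 3 had a higher CV. HMOX1 varied less, with CVs of 6.50% and 6.94% in the control and RUNX1-IT1 ASO groups.

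**Figure D1:**
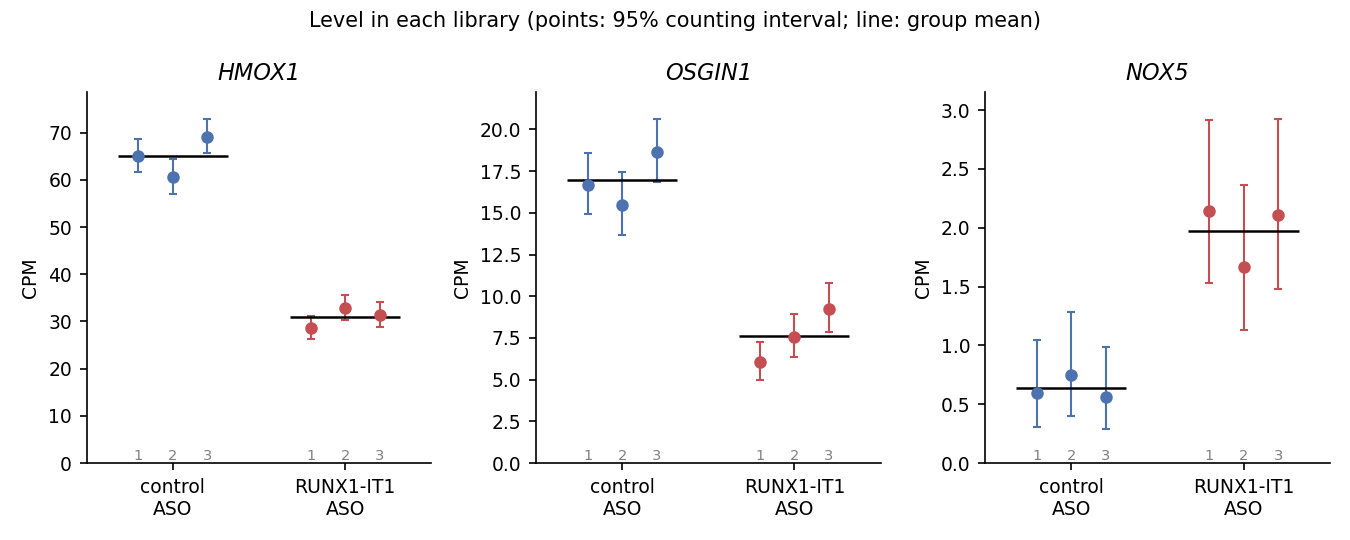
CPM of HMOX1, OSGIN1 and NOX5 in each of the 6 libraries, numbered by replicate, with exact 95% Poisson intervals on the implied reads as bars and the group mean as a line. HMOX1 and OSGIN1 were lower and NOX5 higher in all 3 RUNX1-IT1 ASO libraries on the deposited scale, and only for NOX5 do the intervals of the 2 groups meet.

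NOX5, gene ENSG00000255346.9, lies on the plus strand of chromosome 15 from 68930525 to 69062743. In control ASO replicates 1 to 3 it stood at 0.598, 0.753 and 0.565 CPM. Replicates 1 to 3 of the RUNX1-IT1 ASO group stood at 2.14, 1.67 and 2.11 CPM. All RUNX1-IT1 ASO libraries lay above all control ASO libraries, the nearest pair 2.21-fold apart. Means were 0.639 ± 0.1004 and 1.97 ± 0.264 CPM (SD, n = 3 each), 3.09-fold higher under the RUNX1-IT1 ASO. The change was 0.86 ± 0.13 on the log2(CPM + 1) scale (limma standard error), which understates the change of a gene this low. With a pseudocount of 0.1 CPM it was 1.49.

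NOX5 rested on few reads, 12, 13 and 12 in the control ASO libraries and 40, 31 and 36 in the RUNX1-IT1 ASO libraries. Its 95% Poisson intervals reached up to 1.29 CPM in control ASO replicate 2 and down to 1.13 CPM in RUNX1-IT1 ASO replicate 2, so single libraries of the 2 groups could not all be told apart by counting error alone. Its CVs, 15.7% and 13.4%, were below the 28.5% and 16.7% that counting alone would give. The mean of 1.31 CPM over all 6 libraries passed the filter of at least 1 CPM only through the RUNX1-IT1 ASO group, where NOX5 was high.

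**Figure D2:**
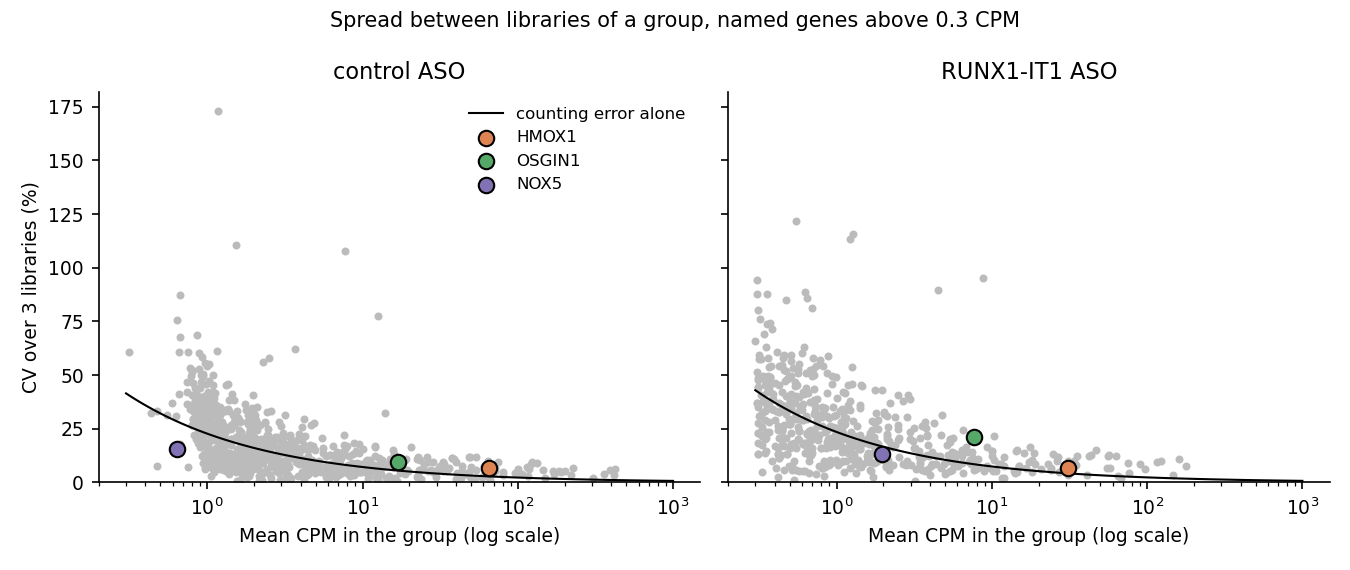
CV over the 3 libraries of a group against the mean CPM of the group (log scale) for named genes above 0.3 CPM, control ASO left and RUNX1-IT1 ASO right, with the CV from counting error alone as a line. OSGIN1 lies well above the line in the RUNX1-IT1 ASO group, at 21.1%, and NOX5 lies below it in both groups.

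Coding transcripts of NOX5 start in 2 regions. Transcripts NOX5-201 and NOX5-203 start at 68930525, inside SPESP1, a sperm-protein gene on the same strand that spans 68818221 to 68946811, and NOX5-202 starts downstream at 69014695. SPESP1 is not among the listed genes. AC027088.1 and AC027088.4 overlap NOX5 on the same strand and AC027088.3 on the opposite strand. None of the 3 is listed under these GENCODE names, which the deposited entries may not use. The strand setting of the counting is not given in the sources used here. If strand was not used, reads of NOX5 and of AC027088.3 cannot be told apart. Reads in stretches shared with SPESP1, AC027088.1 and AC027088.4 are uncertain, and the CPM values do not show which start site was used. In RefSeq, another annotation, the upstream start belongs to SPESP1 and to a separate gene, SPESP1-NOX5. The annotation behind the CPM values is not given, so those of NOX5 may cover less than the GENCODE span.

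Levels of different genes were compared per length of transcript. Over the union of annotated exons, HMOX1 had 27.0 ± 1.76, OSGIN1 4.90 ± 0.467 and NOX5 0.0510 ± 0.00802 CPM per kb in the control ASO libraries (SD, n = 3). Under the RUNX1-IT1 ASO the same levels were 12.9 ± 0.894, 2.20 ± 0.464 and 0.158 ± 0.0211 CPM per kb. The order HMOX1, OSGIN1, NOX5 held in both groups, with no overlap between neighbours. The exon union of NOX5 is long, 12511 bases, and with the length of the single transcript NOX5-202 its levels were 0.228 and 0.703 CPM per kb, still the lowest.

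Promoter windows show how the start regions of the genes differ in sequence. They run from 250 bases before a RefSeq start to 50 after it on GRCh38.p14. Windows were at hand for OSGIN1, NOX5 and the SPESP1-NOX5 readthrough gene, whose start is the upstream one. The window of SPESP1 itself is the same as that of SPESP1-NOX5. No window for HMOX1 was used. The OSGIN1 window surrounds its downstream start, while transcript OSGIN1-201 starts upstream at 83949067. Each was searched on both strands for TGACNNNGC, the core of the antioxidant response element that NRF2 binds with small MAF proteins, for the related TGAGNNNGC, for TGANTCA, which AP-1 factors bind, and for TGACGTCA, which CREB and ATF factors bind. Capitals mark a match, and all 3 windows are shown 5′ to 3′ on the plus strand, at chr16:83952990-83953289 for OSGIN1, chr15:69014445-69014744 for NOX5 and chr15:68930275-68930574 for SPESP1-NOX5.
OSGIN1: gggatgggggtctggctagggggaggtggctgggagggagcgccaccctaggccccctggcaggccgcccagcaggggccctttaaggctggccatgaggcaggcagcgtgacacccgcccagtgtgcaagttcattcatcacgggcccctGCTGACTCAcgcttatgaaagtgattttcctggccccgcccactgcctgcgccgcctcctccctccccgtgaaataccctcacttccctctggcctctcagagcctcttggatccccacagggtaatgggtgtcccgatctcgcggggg
NOX5: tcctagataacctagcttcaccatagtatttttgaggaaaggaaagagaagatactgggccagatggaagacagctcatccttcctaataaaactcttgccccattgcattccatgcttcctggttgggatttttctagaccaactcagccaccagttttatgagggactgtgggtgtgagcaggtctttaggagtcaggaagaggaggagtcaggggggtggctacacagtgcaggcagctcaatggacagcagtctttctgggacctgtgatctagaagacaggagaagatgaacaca
SPESP1-NOX5: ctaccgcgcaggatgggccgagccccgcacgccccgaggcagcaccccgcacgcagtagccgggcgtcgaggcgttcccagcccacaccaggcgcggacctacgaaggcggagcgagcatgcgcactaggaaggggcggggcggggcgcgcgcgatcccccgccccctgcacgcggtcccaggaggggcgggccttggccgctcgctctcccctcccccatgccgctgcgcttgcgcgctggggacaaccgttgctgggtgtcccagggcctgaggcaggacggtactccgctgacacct

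The OSGIN1 window held 1 stretch with matches, from -99 to -91 relative to the start. Read on the minus strand it matches TGAGNNNGC, and its last 7 bases, from -97 to -91, match TGANTCA, so the 2 motifs overlap there. Neither window of the NOX5 locus held any of the 4 motifs. Among 34943 promoter windows of the same length, 13.3% held TGACNNNGC, 18.3% TGAGNNNGC, 7.72% TGANTCA and 1.84% TGACGTCA. The upstream window of the NOX5 locus is 75% G and C and the downstream one 48%, beside a median of 58.7% over all windows and 66% for OSGIN1.

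Ratios between genes within a library are not moved by any scaling of that library. They were taken from CPM with no correction for length, so they compare the groups and not the levels of 2 genes. The CPM of OSGIN1 was 25.7, 25.5 and 27.0% of that of HMOX1 in control ASO replicates 1 to 3, against 21.1, 23.0 and 29.5% in replicates 1 to 3 of the RUNX1-IT1 ASO group. The 2 groups overlapped, at 26.0 ± 0.830% and 24.5 ± 4.39% (SD, n = 3 each). The CPM of NOX5 was 0.919, 1.24 and 0.817% of that of HMOX1 in the control ASO libraries and 7.46, 5.07 and 6.72% in the RUNX1-IT1 ASO libraries. This ratio was 6.46-fold higher in the mean of the RUNX1-IT1 ASO group, and the groups did not overlap. NOX5 over OSGIN1 was 6.98-fold higher, at 3.83 ± 0.945% and 26.7 ± 7.52% (SD, n = 3 each). The ratios use the same values that chose the genes and are given without a test.

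**Figure D3:**
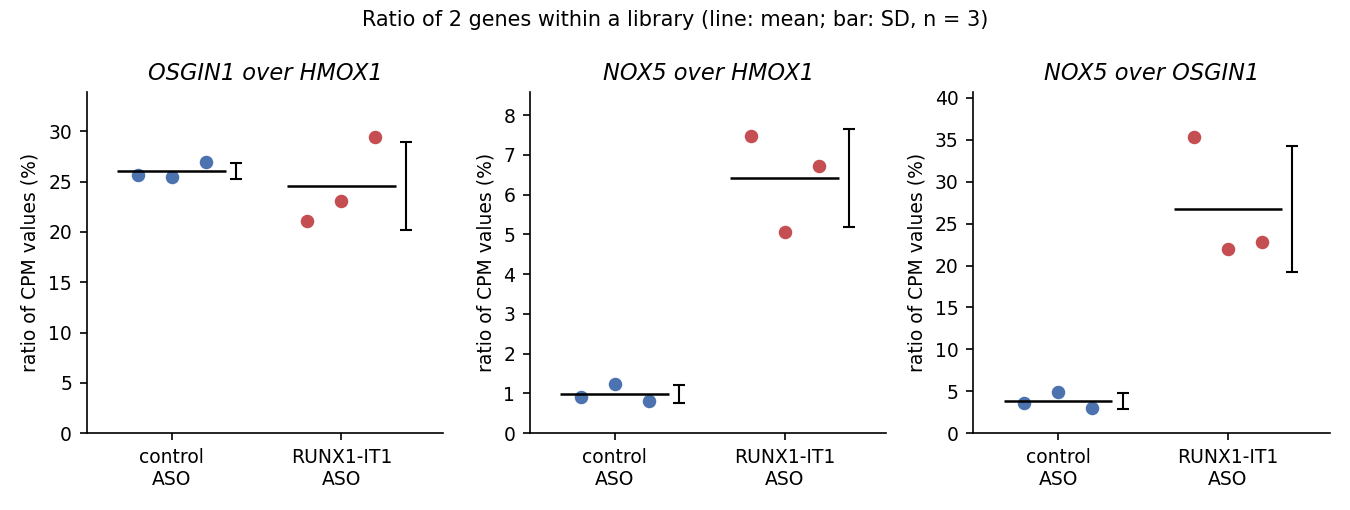
CPM of 1 gene as a percentage of another in each library, with the mean as a line and the SD over 3 libraries as a bar beside it. OSGIN1 over HMOX1 overlaps between the groups, while NOX5 over HMOX1 goes from 0.992 ± 0.221% to 6.42 ± 1.23%.

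HMOX1 was among the more abundant of the 771 named genes, at rank 34 by mean CPM in the control ASO libraries and rank 26 in the RUNX1-IT1 ASO libraries. OSGIN1 stood at ranks 93 and 76. NOX5 stood at ranks 760 and 183. Both HMOX1 and OSGIN1 lay near the small end of the folds that the tables hold, since only 35 of the 751 lower genes had a smaller fold than HMOX1 and 82 a smaller fold than OSGIN1, with a median of 3.32-fold lower. NOX5 had the sixth largest fold of the 20 higher genes, whose median was 2.28-fold, counting SDHAP2, which is listed at 0 in the control ASO libraries, as larger.

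**Figure D4:**
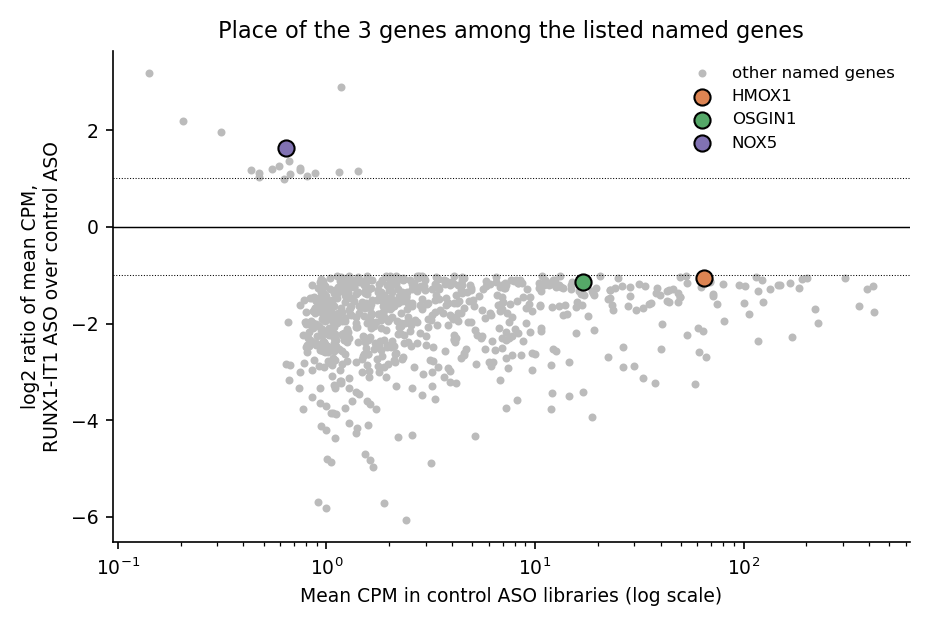
log2 ratio of the group means against the mean CPM in the control ASO libraries (log scale) for 768 named genes, leaving out 3 with a mean of 0 in a group, with dotted lines at 2-fold. HMOX1 and OSGIN1 sit just past the lower line, with most listed genes below them, and NOX5 sits among the 20 higher genes.

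Setting the listed entries of each library to 1 common total turned the direction of HMOX1 and OSGIN1, to 0.42 and 0.31 on the log2 scale, and left NOX5 higher at 1.73. By construction this centres a set in which nearly all genes were lower, and it moved the median change of the tested genes from -1.11 to -0.06. For HMOX1 and OSGIN1 a positive value after it marks a smaller decrease than that of the listed total, while NOX5 was higher on the deposited scale too. The value of OSGIN1 after it was called neither way by limma. Which scale is closer to RNA per cell was not tested.

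Over the 489 named genes that reached a mean of 1 CPM, limma with Benjamini-Hochberg adjustment called 97.5% lower and 2.04% higher under the RUNX1-IT1 ASO, and the libraries of the groups did not overlap for 97.1% on the lower side and 2.04% on the higher side. HMOX1 and OSGIN1 are on the lower side by both measures and NOX5 on the higher side, and since the genes were chosen on this contrast nothing is read from that. Of 165 genes on 4 lists of the pathway (regulators of NRF2 and BACH1, NRF2 targets and antioxidant enzymes, NADPH oxidases with their partners, and heme and iron handling), 7 were listed and 6 tested. Besides the 3 genes themselves, all 3 tested were called lower, a share near that of all tested genes. No named gene had a fold under 1.99 between the group means. Calls of listed genes, here and below, were thus largely fixed by what is listed and are given as a description.

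None of the 14 regulators of NRF2 and BACH1 was listed, so their levels were not analysed here. Of 91 genes on the list of NRF2 targets and antioxidant enzymes, 5 were listed, and their control by NRF2 was not tested. TXNIP is on the list but binds and inhibits thioredoxin and is not itself an antioxidant enzyme. It fell from 150 ± 3.17 to 65.0 ± 2.05 CPM (SD, n = 3 each), 2.31-fold, though its log2 change was 0.29 after scaling to a common total. ABCC2, an efflux pump for conjugated compounds, fell from 16.2 ± 0.268 to 7.46 ± 1.05 CPM, 2.18-fold, close to OSGIN1 in both CPM and fold, and stood at 0.34 after scaling to a common total. TXNIP and ABCC2 were called higher on that scale, among 43 such genes of the 489 tested. CYP1B1, a cytochrome P450, stood at 1.23 ± 0.314 and 0.460 ± 0.240 CPM, too low for the test. No other NADPH oxidase or partner on the list of 29 was listed besides NOX5.

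Of 38 genes of heme and iron handling, HMOX1 and CD163 were listed. CD163, a receptor that takes up hemoglobin bound to haptoglobin, fell from 9.71 ± 0.464 to 1.59 ± 0.215 CPM (SD, n = 3 each), 6.12-fold. CD163 is also a macrophage marker, and HMOX1 is abundant in macrophages. Of 12 macrophage and monocyte markers 3 were listed, CD163, MRC1 and ITGAM, and both that were tested, CD163 and MRC1, were called lower, beside 97.5% of all tested genes, MRC1 (-0.01) no longer so after scaling to a common total. The summed level of the 3 was 15.8 to 17.3 CPM per control ASO library and 3.34 to 3.64 CPM per RUNX1-IT1 ASO library. The other 9, CD68, CSF1R and CD14 among them, were not analysed here. The labels name only the cultured ES2 line and no macrophages, and whether other cells were present was not tested. No marker of lymphocytes, endothelium, fibroblasts and smooth muscle, or testis was listed, nor any of 15 mitochondrially encoded or 18 housekeeping genes.

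Stress-responsive transcription factors that can act on HMOX1 made a further list of 30 genes, of which 6 were listed and all 6 were called lower by limma, with a median change of -1.998 on the log2(CPM + 1) scale. These compare with 97.5% called lower and a median of -1.11 over all tested genes. The added 1 CPM shrinks the change of low genes more than that of abundant ones such as these, so the medians are not on equal terms. The 4 most abundant were EGR1, an immediate early zinc finger factor, the AP-1 subunits JUNB and FOSB, and ATF3. EGR1 fell 3.10-fold, from 358 ± 14.3 to 115 ± 11.2 CPM, and JUNB fell 2.94-fold, from 124 ± 11.6 to 42.3 ± 5.13 CPM (SD, n = 3 each). FOSB and ATF3 fell 6.43-fold and 9.54-fold. Beside the median of 3.32-fold over the 751 lower genes, EGR1 and JUNB fell less, and FOSB and ATF3 more. After scaling to a common total 3 of the 6 were still called lower, FOSB and ATF3 among them, and 3 were not called, EGR1 at -0.14, JUNB at -0.06 and KLF4, named after its values were seen, at 0.11. CD163 was called lower on that scale too. HMOX1 and OSGIN1 had smaller folds than each of these 4, a difference that was not tested.

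**Figure D5:**
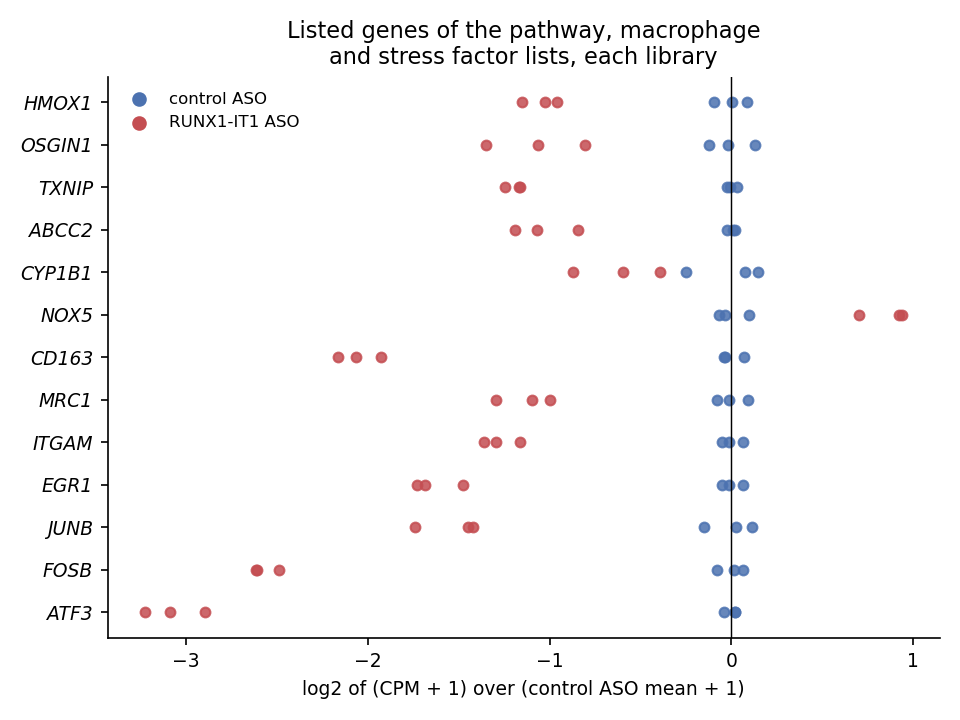
Each library's level of 13 listed genes as the log2 ratio of CPM + 1 to the control ASO mean + 1, control ASO in blue and RUNX1-IT1 ASO in red. HMOX1, OSGIN1, TXNIP and ABCC2 lie close to -1 in the RUNX1-IT1 ASO libraries, CD163 and the stress factors lie further left, and NOX5 is the only gene of these to the right.

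The genes whose profiles were most like those of the 3 were found by the root-mean-square distance between log2(CPM + 1) values over the 6 libraries, in log2 units, each gene centred on its control ASO mean. Nearest to HMOX1 were TSC22D1 (0.0430), BAMBI (0.0469), H2AFJ (0.05003), PLK2 (0.0531) and DBIL5P (0.0565), beside a median distance of 0.247 over 488 genes. TSC22D1 is a leucine zipper regulator, BAMBI a decoy receptor of TGF-beta signalling, H2AFJ a histone variant and PLK2 a polo-like kinase. Nearest to OSGIN1 were ZFP36 (0.0553), RHOB (0.0650), IL1A (0.0932), HTR1D (0.0961) and H2AFJ (0.101), beside a median of 0.292. ZFP36 is an mRNA decay factor, RHOB a small GTPase and IL1A an interleukin. Nearest to NOX5 were LINC00894 (0.130), CD93 (0.188), SLC2A10 (0.206), AARD (0.223) and ZIC4 (0.229), beside a median of 1.41. All are among the higher genes, of which 11 were tested. Centring on the control ASO mean places genes of the same direction nearest, so their direction is no finding. CD93 is a cell surface glycoprotein, SLC2A10 a sugar transporter and ZIC4 a zinc finger factor. The added 1 CPM draws low genes with larger folds towards the others. BAMBI and DBIL5P were 2.64-fold and 3.43-fold lower in CPM against 2.10-fold for HMOX1, and IL1A and HTR1D were 2.90-fold and 3.99-fold lower against 2.22-fold for OSGIN1. OSGIN1 ranked only 64 in likeness to HMOX1, at a distance of 0.129, and HMOX1 ranked 20 in likeness to OSGIN1. The 6 points of each profile share library depth, and the distances are a description of these libraries.

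On the chromosome, listed genes were sparse around all 3. Of 14 protein-coding genes within 1 megabase of HMOX1, only APOL4 was listed, 795 kb away, at 1.51 ± 0.443 and 0.244 ± 0.154 CPM (SD, n = 3 each). Of 19 within 1 megabase of OSGIN1, only CRISPLD2, a secreted protein gene, was listed, 854 kb away, and it fell 2.97-fold, a call lost after scaling to a common total (-0.07). None of the 14 around NOX5 was listed.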

How the data were processed

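CPM values were deposited by the authors (read counts per 1000000 reads of a library), a unit inferred from the numbers themselves. The submitters' processing notes name GRCh38 as the build and list FastQC 0.11.9 and fastp 0.22.0. The aligner, counting tool, annotation, strand setting and any filters are not given in the sources used here. Entries with no symbol, 342 in number and 9.35 to 10.4% of the listed sum, did not enter the fit.

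log2(CPM + 1) values of the 489 named genes whose mean reached 1 CPM were fitted with limma 3.58.1 (R 4.3.3), using a mean-variance trend and a single term for group. Each change is the RUNX1-IT1 ASO mean less the control ASO mean, and a call needs a Benjamini-Hochberg adjusted p under 0.05. The fit was tested on simulated data.

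The value of 1 read was found from the spacing of low values. Every value up to 320 steps was within 0.1 of a whole step. The smallest values of the control ASO libraries were at 2 to 5 steps, so whole reads count as estimates there and no count test was run. Totals were 17100000 to 21200000 reads, and a floor of 3 reads is 0.141 to 0.176 CPM.

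The members, the 13 gene lists and the rule for named genes were chosen with earlier results of these data known. The rule took the 3 genes, listed members of the pathway lists, the 4 most abundant listed stress factors, the 5 nearest profiles and up to 3 listed neighbours of each gene within 1 megabase. PAX8, MRC1 and ITGAM, outside this rule, are named as markers after their values were seen. Alternatives changed the pseudocount, filter, scaling, replicate term and libraries.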

Additional observations from a re-analysis of the deposited data

How the results depend on the processing

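Leaving out each library in turn moved the log2 change of HMOX1 between -1.09 and -0.99, that of OSGIN1 between -1.20 and -0.93 and that of NOX5 between 0.82 and 0.93, and left 477 to 478 genes called lower and 10 to 11 called higher by limma. With a pseudocount of 0.1 CPM the NOX5 change was 1.49, since its level is low. Setting the listed entries of each library to 1 common total gave 0.42 for HMOX1, 0.31 for OSGIN1 and 1.73 for NOX5, with 118 genes called lower and 43 higher, and among the genes of the pathway lists 1 lower and 4 higher in place of 5 and 1, counts that include HMOX1, OSGIN1 and NOX5 and so are no support for them. By construction this scaling centres the listed genes. With no filter on low values 750 genes were called lower and 19 higher, and with a minimum mean of 5 CPM 165 and 0, where 0 pathway genes were called higher because NOX5 was no longer tested. With entries without a symbol included, 649 entries were called lower and 20 higher. The replicate block, the replicate number as a second term, gave 478 lower and 10 higher and left the 3 log2 changes at -1.04, -1.07 and 0.86. Deviations of same-numbered libraries from their group means correlated at -0.24, -0.10 and -0.02, so the numbers were not taken to pair the samples. Depth limits NOX5 most, at 12 to 40 reads a library.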
